A study of Homo sapiens with 12 samples.

Results

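The B-cell receptor signalling genes described here are 9 genes of the same pathway, chosen by name with earlier results of these data known. They are CD79A and CD79B, which encode the signalling subunits of the receptor, the kinases LYN, SYK and BTK, the adaptor BLNK, the scaffold BANK1, and the effectors PLCG2 and PRKCB. Each was taken as the row whose Ensembl identifier carries that GENCODE symbol, and all 9 were present among the 60675 identifiers of every count table. The 12 libraries came from SUDHL6 and SUDHL16, established lines of diffuse large B-cell lymphoma (DLBCL), a cancer of mature B cells. In each line, 3 libraries of parental cells were compared with 3 libraries of venetoclax-resistant cells, derived by long exposure to rising concentrations of ABT-199/venetoclax (an inhibitor of the anti-apoptotic protein BCL2) until they grew at 10 times the IC50 of the starting line, and then held under the drug. SUDHL6 was sequenced from NEBNext Ultra II libraries on an Illumina HiSeq and SUDHL16 from ribosome-depleted stranded total RNA libraries on a NovaSeq. Line, kit and platform therefore cannot be told apart, and the lines are set side by side with no test of their baseline levels. The labels do not say whether a resistant line is 1 clone or whether its 3 libraries came from separate cultures, so the p-values measure only the spread between libraries, which may be technical.

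When antigen binds a B-cell receptor, LYN and other Src-family kinases phosphorylate the tails of CD79A and CD79B, and SYK docks there and is activated. SYK phosphorylates BLNK, which gathers BTK and PLCG2 so that PLCG2 cleaves a membrane lipid, releasing calcium and activating PRKCB (protein kinase C beta) on the way to NF-κB. BANK1 is a scaffold that binds LYN and calcium channels in B cells. The study treated these lines with inhibitors of the pathway, which poses the question of whether transcripts of its components differ between parental and resistant cells.

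Total counts were 33992784 to 40885665 in the SUDHL6 libraries and 14335460 to 22068221 in SUDHL16, except for the parental library CE-26 with 4131927. CE-26 stood apart: 31.9% of its counts fell on identifiers that the GENCODE annotation did not hold, against at most 5.06% elsewhere, and SUDHL16 results are therefore also given without it. The typical variation between libraries of a group (edgeR's common biological coefficient of variation) was 0.0516 in SUDHL6, 0.468 in SUDHL16 and 0.339 in SUDHL16 without CE-26. The B-cell markers MS4A1, CD79A, CD79B, PAX5 and CD22 were present in every group. Levels are given in CPM (counts-per-million of the library total after TMM scaling). The 6 myeloid markers summed to 19.3 CPM in CE-26 and to at most 1.24 in any other library. The 5 T-cell markers summed to 16.5 to 19.9 CPM in SUDHL16 resistant cells, with CD2 and CD3D at 0, against 1.98 to 15.2 in the parental libraries, the highest of which was CE-26. The 3 plasma-cell markers (SDC1, PRDM1 and XBP1) summed to 8.13 to 24.2 CPM in SUDHL16 parental and 89.3 to 115 CPM in resistant libraries, with SDC1 at 0 in the latter, and to 40.6 to 44.1 and 20.9 to 25.6 CPM in SUDHL6. The 3 germinal centre markers summed to 283 CPM or more in every library, and the 6 epithelial or stromal ones to 25.1 CPM in CE-26 and at most 3.48 elsewhere. The part of these transcripts in the results was not tested.

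In SUDHL6, SYK was lower in resistant cells, and no member was higher by the limits used (adjusted p under 0.05 and at least 1.5-fold). In SUDHL16, PRKCB, LYN and BANK1 were higher in resistant cells, and no member was lower. A gene is called higher or lower below only if it passed both limits in the quasi-likelihood test of edgeR, with p-values adjusted by Benjamini-Hochberg over all genes tested. In SUDHL6, edgeR called 0 of 9 members higher and 1 lower, where 4.31% and 4.65% of the 16662 genes tested were called higher and lower. At an unadjusted p under 0.05 in either direction, 7 of 9 members passed there, beside 45.2% of all genes tested, and 3 of 9 in SUDHL16, beside 19.1%. In SUDHL16, 3 of 9 were called higher and 0 lower, where 3.2% and 2.1% of 15708 genes were. Among the 3, BANK1 was tested only through its resistant group, so its call is a description. The same 3 members were called higher in SUDHL16 without CE-26, with 0 lower, where the shares over 16280 genes were 6.73% and 3.32%. No member was called in both lines. The members and the gene lists used below were chosen with earlier results of these data known. Their counts beside the shares over all genes are therefore descriptions.

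**Figure D1:**
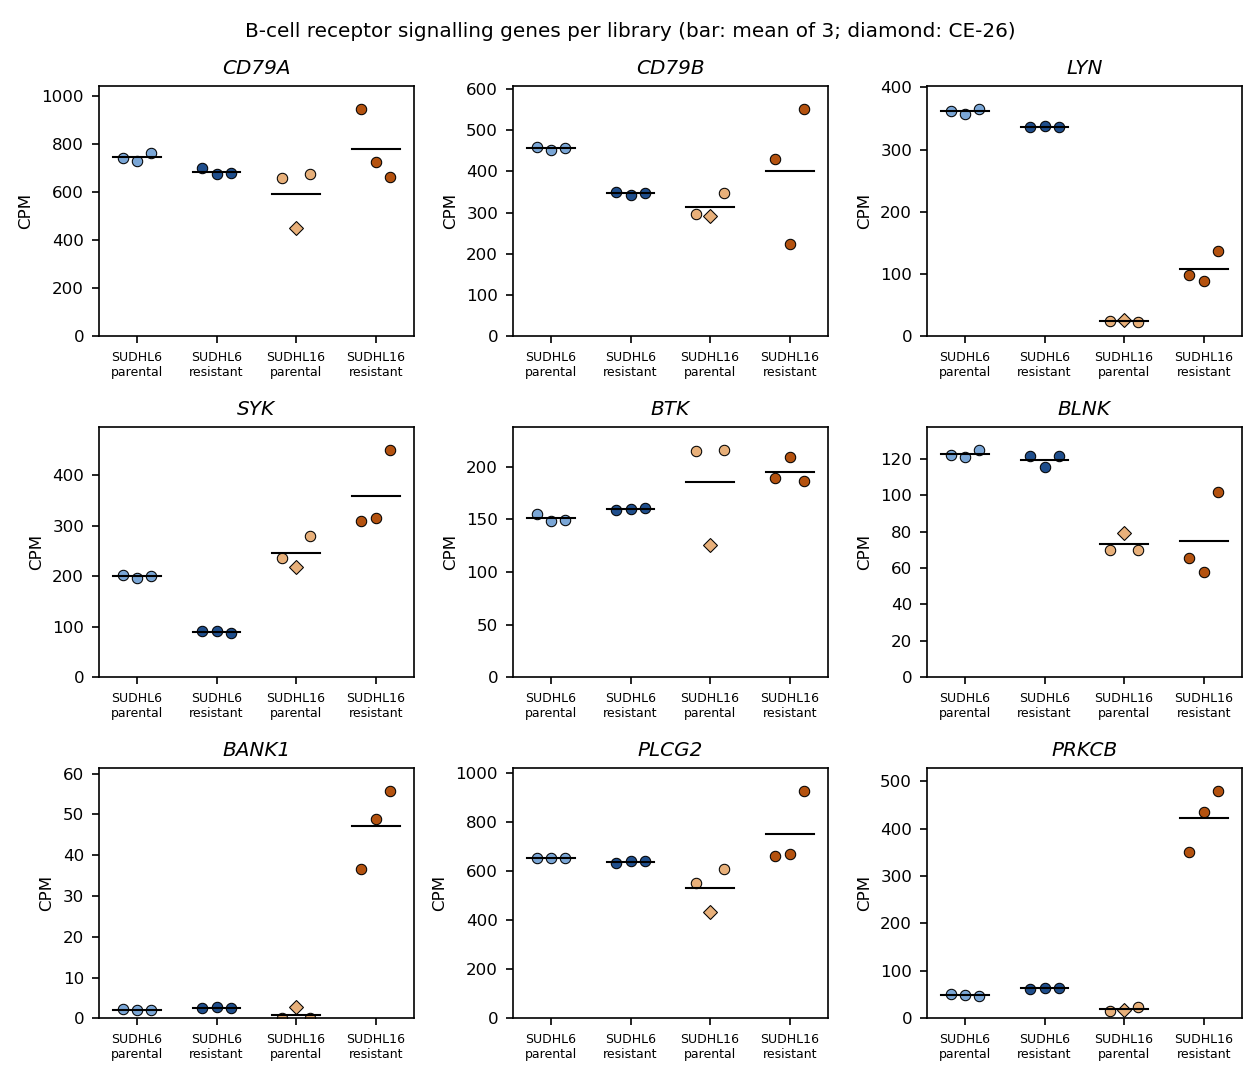
Level of each member in each of the 12 libraries (CPM, vertical axis from 0), by line and by parental or resistant cells. Each point is 1 library, the bar is the mean of 3 and the diamond marks CE-26. In SUDHL16 the 3 resistant libraries lie above the 3 parental ones for PRKCB, LYN and BANK1, and in SUDHL6 the SYK points of resistant cells, at 87.2 to 92.3 CPM, lie below those of parental cells, at 196 to 201 CPM.

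The bases just before the start of the 3 members for which the table of promoters held a sequence and which were called in a line (PRKCB, BANK1 and SYK) are shown because these are the genes whose transcript levels moved. They are the 250 bases before the RefSeq start in GRCh38.p14, on the plus strand, at chr16:23835733-23835982 for PRKCB, chr4:101790480-101790729 for BANK1 and chr9:90801350-90801599 for SYK. Capitals mark, on either strand, the letters AGGAAG (an ETS core), ATGCAAAT (the octamer bound by OCT factors), GGGCGG (a GC box) and CAGGTG (an E-box). No marked match overlaps another.
PRKCB: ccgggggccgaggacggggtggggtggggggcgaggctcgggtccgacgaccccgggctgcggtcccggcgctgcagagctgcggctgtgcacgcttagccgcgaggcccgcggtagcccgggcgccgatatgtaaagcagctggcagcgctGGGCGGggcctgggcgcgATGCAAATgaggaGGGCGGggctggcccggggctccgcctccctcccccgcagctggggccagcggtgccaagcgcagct
BANK1: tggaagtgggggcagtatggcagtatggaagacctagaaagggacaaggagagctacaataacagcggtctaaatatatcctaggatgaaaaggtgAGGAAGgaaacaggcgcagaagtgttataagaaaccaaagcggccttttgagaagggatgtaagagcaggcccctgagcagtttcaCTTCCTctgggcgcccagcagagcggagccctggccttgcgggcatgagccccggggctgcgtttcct
SYK: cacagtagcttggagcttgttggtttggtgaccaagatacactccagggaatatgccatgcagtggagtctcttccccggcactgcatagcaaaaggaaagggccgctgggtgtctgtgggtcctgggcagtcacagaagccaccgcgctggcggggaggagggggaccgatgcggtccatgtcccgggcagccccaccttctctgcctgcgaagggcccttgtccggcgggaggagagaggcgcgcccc

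The PRKCB window held the octamer once, 80 to 73 bases before the start, between a pair of GC boxes. An octamer was present in 1.7% of 27305 promoter windows of this length and a GC box in 42.3%. In the BANK1 window, AGGAAG occurred 2 times, once on each strand, and this word was present in 28.7% of all windows. None of the 4 words was present in the SYK window, and CAGGTG, present in 17.5% of all windows, was in none of these 3. PRKCB had 30 CpG dinucleotides in its window, SYK 13 and BANK1 8, with a median of 11 over all windows. The RefSeq start of PRKCB is also the GENCODE gene start, that of SYK lies 187 bases before it, and that of BANK1 lies 379444 bases inside the GENCODE gene. A word match is a description of the window and was not tied to any measurement of binding.

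The receptor subunits CD79A (GRCh38, chr19:41877279-41881372, 5 exons) and CD79B (chr17:63928738-63932336, minus strand, 6 exons) carry the tails that LYN phosphorylates. In SUDHL6, CD79B measured 460, 453 and 457 CPM in parental and 351, 343 and 346 CPM in resistant libraries. The groups did not overlap, and CD79B was 1.32-fold lower in resistant cells (log2 fold change -0.40, SE 0.02, adjusted p = 3.58e-09), a difference larger than the spread but below 1.5-fold. CD79A in SUDHL6 was 746 ± 15.2 CPM (SD, n = 3) in parental cells, against 686 ± 13.1 CPM with resistance (log2 fold change -0.12, adjusted p = 3.39e-04). Both subunits were lower in 3 of 3 resistant libraries of SUDHL6. In SUDHL16, CD79B was 297, 291 and 348 CPM in parental libraries and 430, 223 and 552 CPM in resistant ones, so that the resistant libraries lay on both sides of the parental range. Its log2 fold change there was 0.36, with a 95% interval of -0.45 to 1.18 (adjusted p = 0.654). The SUDHL16 levels of CD79A were 657, 449 (CE-26) and 676 CPM in parental and 948, 726 and 665 CPM in resistant libraries, which overlapped (log2 fold change 0.39, interval -0.31 to 1.09, adjusted p = 0.560). The exons of CD79B overlap those of another annotated gene on the same strand, and how the counting divided shared reads is not given in the sources used here.

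LYN (chr8:55879835-56014169, 13 exons), the Src-family kinase that acts first at the receptor and also feeds inhibitory receptors, rose in SUDHL16. Its parental libraries measured 24.6, 26.9 and 23.7 CPM and its resistant libraries 98.2, 89.0 and 137 CPM. Each resistant library was above each parental one, and CE-26 lay with the other parental libraries. LYN was 4.33-fold higher in resistant cells (log2 fold change 2.11, SE 0.25, 95% interval 1.54 to 2.68, adjusted p = 0.00263), and 4.51-fold higher without CE-26 (adjusted p = 0.00157). In SUDHL6, LYN was far higher from the outset, at 362, 358 and 366 CPM in parental and 337, 339 and 336 CPM in resistant libraries. The groups did not overlap, yet the difference was small (log2 fold change -0.10, SE 0.02, adjusted p = 6.23e-04). With resistance, the LYN level in SUDHL16 reached 108 ± 25.5 CPM, still below every SUDHL6 library, although the libraries of the lines were made with different kits.

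SYK (chr9:90801787-90898549, 14 exons), the kinase that carries the signal from CD79A and CD79B to BLNK, was the member that fell in SUDHL6. Parental libraries measured 201, 196 and 201 CPM, and resistant libraries 91.3, 92.3 and 87.2 CPM. The lowest parental value was more than 100 CPM above the highest resistant one, with 6657 to 8179 counts behind the parental values and 3169 to 3727 behind the resistant ones. SYK was 2.21-fold lower in resistant cells (log2 fold change -1.14, SE 0.03, 95% interval -1.20 to -1.09, adjusted p = 1.56e-11). In bulk RNA, fewer cells with the transcript and less transcript per cell cannot be told apart. In SUDHL16, SYK was 236, 219 (CE-26) and 279 CPM in parental and 309, 316 and 450 CPM in resistant libraries. These groups did not overlap either, with the resistant libraries on the higher side, but SYK did not pass the test (log2 fold change 0.55, interval -0.08 to 1.17, adjusted p = 0.327, and 0.289 without CE-26). ZAP70, the T-cell relative of SYK, averaged 0.244 and 0.314 CPM in SUDHL6 parental and resistant cells. In SUDHL16 it averaged 2.02 CPM in parental cells and was at 0 in all 3 resistant libraries. The highest parental value, 5.51 CPM on 16 counts, was that of CE-26, and the lowest was 0. ZAP70 was not tested in either line. SYK made up at least 95.1% of the summed level of the pair per kilobase in every library.

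BTK (chrX:101349338-101390796, minus strand, 19 exons), the Tec-family kinase that activates PLCG2 and is the target of ibrutinib, differed little. SUDHL6 levels were 155, 148 and 149 CPM in parental and 158, 160 and 161 CPM in resistant libraries. Although these did not overlap, BTK was only 1.06-fold higher (log2 fold change 0.08, SE 0.02, adjusted p = 0.0186). In SUDHL16, BTK was 215 and 216 CPM in parental libraries CE-25 and CE-27 and 126 CPM in CE-26, against 189, 209 and 186 CPM in resistant libraries. The log2 fold change was 0.07 (95% interval -0.57 to 0.71, adjusted p = 0.930) and turned to -0.14 without CE-26 (interval -0.58 to 0.31, adjusted p = 0.755), so no direction can be given in this line. TEC, a relative of BTK, was called higher in SUDHL6, from 12.9 to 15.0 CPM in parental to 23.4 to 26.2 CPM in resistant libraries (log2 fold change 0.83, adjusted p = 1.39e-06).

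BLNK (chr10:96189171-96271587, minus strand, 17 exons), the adaptor between SYK and PLCG2, did not pass the test in either line. In SUDHL6 it was 122 ± 2.12 CPM before and 119 ± 3.27 CPM after resistance, the only member whose groups overlapped there (log2 fold change -0.04, interval -0.10 to 0.02, adjusted p = 0.331). In SUDHL16 its levels were 69.7, 79.2 and 69.8 CPM in parental and 65.2, 57.9 and 102 CPM in resistant libraries, with the parental range inside the resistant one (log2 fold change 0.04, interval -0.56 to 0.65, adjusted p = 0.953). The exons of BLNK overlap those of ZNF518A on the other strand, and ZNF518A was the neighbour that was highest in SUDHL6 resistant cells (log2 fold change 1.17). Whether the counting used strand is not given in the sources used here, so reads of the pair cannot be told apart where they overlap. LCP2, a related adaptor known best from T cells and myeloid cells, was at 0 in every SUDHL6 library. In SUDHL16 it averaged 1.08 and 0.633 CPM in parental and resistant cells and was not tested. Its highest parental value, 2.76 CPM, was that of CE-26.

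BANK1 (chr4:101411286-102074812, 17 exons) went from the limit of detection to a clear level in SUDHL16. Parental libraries CE-25 and CE-27 had 0 counts and CE-26 had 8 counts (2.76 CPM), whereas the resistant libraries had 545, 1040 and 1312 counts, or 36.5, 48.9 and 55.8 CPM. No parental library came near a resistant one. With all 6 libraries the fitted log2 fold change was 7.25 (SE 1.29, 95% interval 4.29 to 10.2, adjusted p = 0.0167), and it rests on the 8 counts of CE-26, the library that also held myeloid transcripts. Against CE-25 and CE-27 alone, with 3 counts over the pair as the floor (0.0875 CPM), the resistant mean of 47.1 CPM was at least 537-fold higher. BANK1 passed the filter on low counts in SUDHL16 only through its resistant group. The call was lost when CE-28, CE-29 or CE-30 was left out (adjusted p = 0.0738, 0.0990 and 0.0981) and in DESeq2 (log2 fold change 5.70, adjusted p = 0.106). In SUDHL6, BANK1 was low throughout, at 2.32, 1.95 and 1.94 CPM in parental and 2.54, 2.87 and 2.48 CPM in resistant libraries. Those groups did not overlap, but the change did not pass the test (log2 fold change 0.35, interval 0.01 to 0.68, adjusted p = 0.0967).

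PLCG2 (chr16:81779279-81962685, 33 exons), the phospholipase that turns the receptor signal into calcium release, did not pass the test in either line. SUDHL6 libraries measured 652 ± 0.182 CPM in parental cells, against 639 ± 5.13 CPM with resistance (log2 fold change -0.03, adjusted p = 0.162). SUDHL16 libraries measured 552, 434 (CE-26) and 607 CPM in parental cells, and 660, 671 and 927 CPM in resistant ones. All 3 resistant values were above the parental ones, but the interval of the log2 fold change of 0.50 ran from -0.17 to 1.18 (adjusted p = 0.412). PLCG2 held 80.5% to 87.5% of the summed level of PLCG2 and its relative PLCG1 per kilobase in every library.

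PRKCB (chr16:23835983-24220611, 17 exons), the protein kinase C that leads from the receptor towards NF-κB, had the largest change that did not rest on a group near 0. In SUDHL16, parental libraries measured 15.1, 17.9 and 23.3 CPM (274, 52 and 376 counts) and resistant libraries 351, 434 and 480 CPM (5234, 9225 and 11277 counts). Every resistant library was thus more than 10 times above every parental one. PRKCB was 22.4-fold higher in resistant cells (log2 fold change 4.48, SE 0.32, 95% interval 3.76 to 5.21, adjusted p = 4.87e-04) and 22.1-fold higher without CE-26 (adjusted p = 1.58e-04). In SUDHL6 it was 51.5, 49.7 and 46.5 CPM in parental and 60.8, 64.5 and 64.2 CPM in resistant libraries. PRKCB was higher in 3 of 3 resistant libraries of SUDHL6 as well, by 1.29-fold (log2 fold change 0.36, SE 0.04, adjusted p = 1.52e-05), which is larger than the spread and below 1.5-fold.

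**Figure D2:**
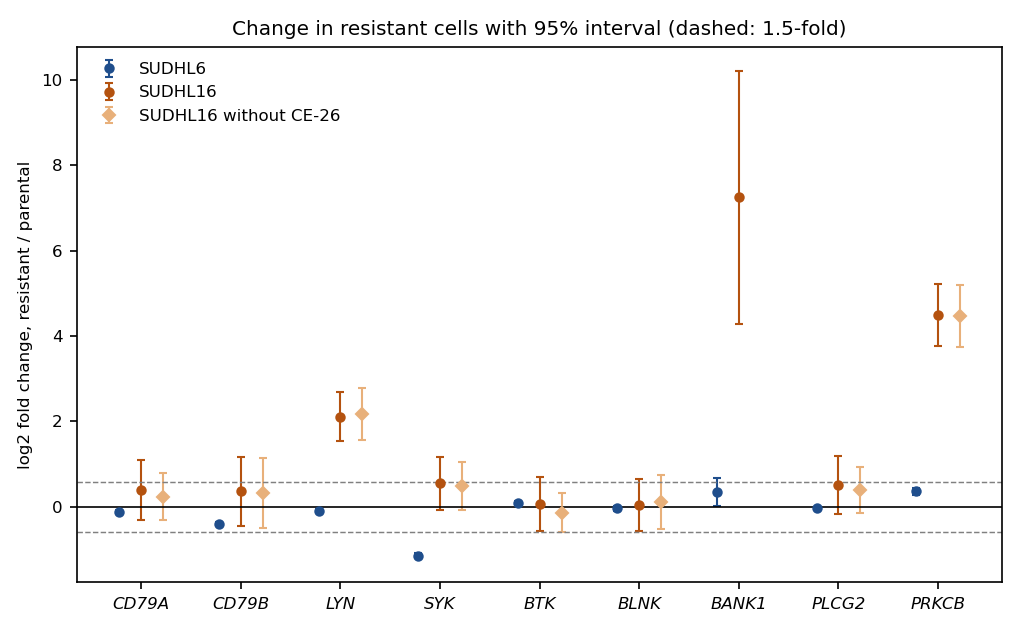
Log2 fold change of each member in resistant over parental cells, with its 95% interval, for SUDHL6, SUDHL16 and SUDHL16 without CE-26. The dashed lines mark 1.5-fold. SYK in SUDHL6 lies below the lower line at -1.14, and LYN, BANK1 and PRKCB in SUDHL16 lie above the upper line. BANK1 has no point without CE-26, since both remaining parental libraries had 0 counts.

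At any size of change, 6 of 9 members had an adjusted p under 0.05 in SUDHL6 (CD79A, CD79B, LYN, SYK, BTK and PRKCB), where 37.3% of all genes tested did. BTK left this count without CE-8, CE-9 or CE-12 (adjusted p = 0.0627, 0.0612 and 0.0556), and in 1 fit of all 12 libraries SYK was the only member under 0.05 (adjusted p = 0.0166). The CPM ranges of parental and resistant libraries did not overlap for 8 of 9 members in SUDHL6, where 47.9% of genes did not, and for 5 of 9 in SUDHL16 (LYN, SYK, BANK1, PLCG2 and PRKCB), where 26.6% did not. BANK1 is among these 5 as a description only, since it was tested there only through its resistant group. The median log2 fold change over the members was -0.04 in SUDHL6 and 0.50 in SUDHL16, beside 0.00 and -0.01 over all genes tested. Without CE-26 the SUDHL16 median over the members was 0.39.

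The change of PRKCB, LYN and SYK differed between the lines in the test of the difference itself, a fit of all 12 libraries (adjusted p under 0.05). In each the SUDHL16 change was the higher, as it was in 4.34% of the 19621 genes tested. BANK1 also passed, which made 4 of 9 members, but it is listed for its value only. In the fit of SUDHL16 alone, BANK1 had been tested only through its resistant group. The size of its log2 difference between the lines rests on the 8 counts of CE-26 and was 12.9 without that library. The log2 change in SUDHL16 minus that in SUDHL6 was 4.16 for PRKCB (SE 0.27, adjusted p = 4.78e-06), 2.25 for LYN (SE 0.24, adjusted p = 1.81e-04), and 1.73 for SYK (SE 0.26, adjusted p = 0.00200). The fitted value of BANK1 was 7.05 (SE 1.21). SYK passed this test although it was called in SUDHL6 only. The fit shared the same spread between lines whose typical variation was 0.0516 (SUDHL6) and 0.468 (SUDHL16). Its SEs were smaller than those of the SUDHL16 change alone, which were 0.32 for PRKCB, 0.25 for LYN and 0.27 for SYK. The p-values of the difference may therefore be too small. CD79B gave 0.79 with a 95% interval of -0.03 to 1.61 (adjusted p = 0.243), and CD79A, BTK, BLNK and PLCG2 did not pass either.

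Among the relatives of LYN, other Src-family kinases, SUDHL16 resistant cells had more BLK and FGR and less FYN. BLK, a B-cell Src kinase, went from 32.4 ± 7.49 to 129 ± 39.3 CPM (log2 fold change 1.98, adjusted p = 0.00916), and LCK, at 55.5 ± 14.5 and 73.3 ± 19.9 CPM, was not called (adjusted p = 0.521). FYN fell from 42.3 ± 2.36 to 1.40 ± 0.665 CPM (log2 fold change -4.90, adjusted p = 5.55e-04). FGR had 0 counts in all 3 parental libraries and 29 to 35 in the resistant ones, at least 19-fold higher against a floor of 3 counts over the group. FGR was tested only through its resistant group, so its call is a description. Per kilobase of canonical transcript, LYN was below FYN in SUDHL16 parental cells, at 4.27 ± 0.280 against 11.7 ± 0.650 CPM, and above it in resistant cells, at 18.4 ± 4.35 against 0.386 ± 0.183 CPM. The mean of LYN stayed below those of BLK (14.6 in parental and 58.0 in resistant cells) and LCK (26.5 and 35.1). In SUDHL6, BLK (-0.23), FYN (-0.29) and LCK (0.20) had log2 fold changes smaller than the 1.5-fold limit.

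The protein kinase C genes of SUDHL16 moved in opposite directions. While PRKCB rose, PRKCA, the other conventional isoform, fell from 153 ± 7.94 to 36.4 ± 1.74 CPM (log2 fold change -2.07, adjusted p = 0.00143). PRKCE rose from 2.52 ± 2.34 to 52.3 ± 8.51 CPM (log2 fold change 4.73, adjusted p = 0.00434), and PRKCD was at 97.4 ± 9.90 and 107 ± 24.8 CPM (log2 fold change 0.14, adjusted p = 0.827). As a share of the 5 genes PRKCA, PRKCB, PRKCD, PRKCE and PRKCH per kilobase, PRKCB was 3.58% to 5.04% in parental and 48.3% to 53.6% in resistant libraries, and PRKCA averaged 31.5% and 3.96%. PRKCB was thus the most abundant of the 5 in SUDHL16 resistant cells, ahead of PRKCD at 31.9% to 40.1%. These shares were computed after the levels had been seen and carry no test. In SUDHL6 the order did not change: PRKCD held 48.0% to 49.9% in all 6 libraries and PRKCB averaged 11.7% in parental and 10.9% in resistant ones, while PRKCA was 1.47-fold higher there, just under the limit (log2 fold change 0.56, adjusted p = 1.48e-09).

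**Figure D3:**
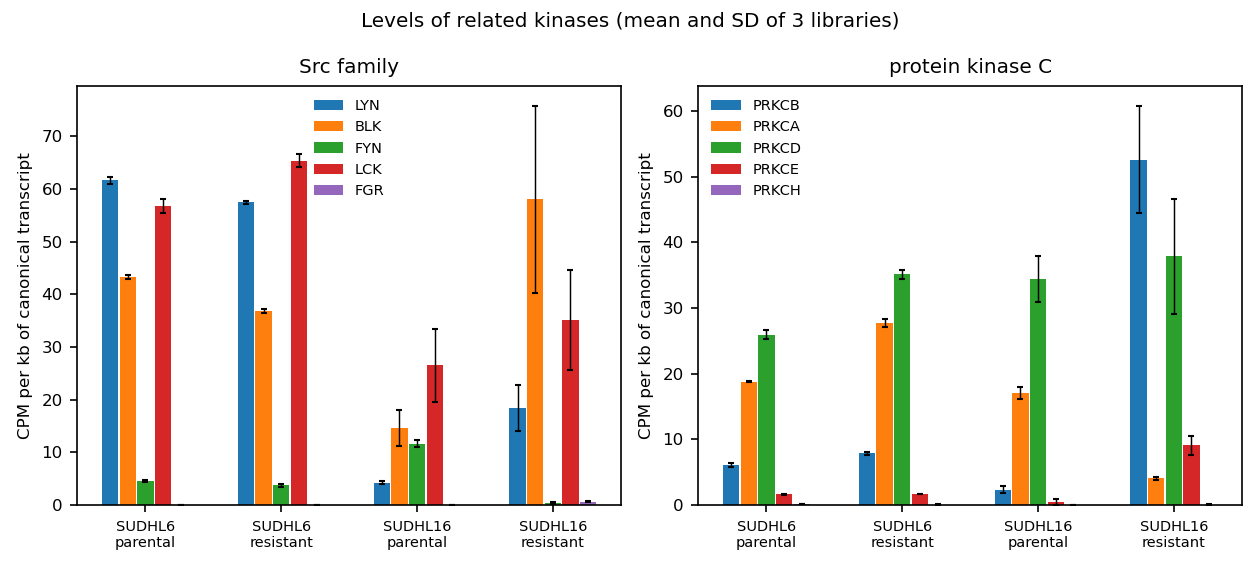
Level of LYN and other Src-family kinases (left) and protein kinase C genes (right) in CPM per kilobase of canonical transcript, by line and by parental or resistant cells. Bars are means of 3 libraries from 0 and error bars are the SD. In SUDHL16, LYN rises from 4.27 to 18.4 and FYN falls from 11.7 to 0.386, and PRKCB rises from 2.35 to 52.6 while PRKCA falls from 17.0 to 4.06 CPM per kilobase.

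Per kilobase, CD79A and CD79B were the most abundant members in all 4 groups, at 541 to 710 and 251 to 367 CPM per kilobase as group means, and no library of CD79B reached the lowest of CD79A in its group. In SUDHL6 parental cells the order continued with PLCG2 (75.2), LYN (61.6), BTK (58.6), SYK (40.1), BLNK (28.2), PRKCB (6.15) and BANK1 (0.623), with no overlap between neighbours in that order. In SUDHL16 parental cells BTK (72.1), PLCG2 (61.2) and SYK (49.2) followed the subunits with overlapping ranges, then BLNK (16.8), LYN (4.27), PRKCB (2.35) and BANK1 (0.276). After resistance, PRKCB stood at 52.6 ± 8.17 in SUDHL16, above LYN (18.4), BLNK (17.3) and BANK1 (14.2), and below SYK (72.1 ± 15.9), with ranges that did not overlap those of the members above and below it. BLNK, LYN and BANK1 overlapped each other. With the length of all merged exons in place of the canonical transcript, the order from PLCG2 to SYK changed in both lines, and in SUDHL16 resistant cells PRKCB came above BTK, and BANK1 above BLNK.

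Of 73 other genes of the pathway, listed by role from general knowledge, 64 were tested in SUDHL6, of which 3 were called higher and 4 lower (4.31% and 4.65% of all genes tested), counts near those shares. Their median log2 fold change was 0.05. The higher ones were CR2 (complement receptor 2, a coreceptor; 1.90), TEC and LILRB1 (an inhibitory receptor; 0.62). The lower ones were SIGLEC10 (an inhibitory receptor; -1.54), NFATC1 (a calcium-responsive transcription factor; -0.84), ITPR2 (a calcium channel; -0.73) and PTPN6 (the phosphatase SHP-1; -0.68). Besides SYK, the genes lower in SUDHL6 thus included both activating and inhibitory ones. In SUDHL16, 9 were called higher and 3 lower among 65 tested (3.2% and 2.1% of all genes), with a median of 0.46. In addition to BLK, FGR and PRKCE, the higher ones included FCGR2B (the inhibitory Fc receptor; 5.22), CR2 (3.72), CD72 (an inhibitory coreceptor; 3.23), VAV2 (an exchange factor; 3.10) and STIM1 (the calcium sensor of the endoplasmic reticulum; 2.22), and the lower ones were FYN, PRKCA and RASGRP3 (an exchange factor; -1.55). FCGR2B, for example, was 2.15 to 8.32 CPM in parental and 187 to 246 CPM in resistant libraries. CR2 was the pathway gene called in both lines, from 0.625 to 2.33 CPM in SUDHL6 and from 13.4 to 178 CPM in SUDHL16. Without CE-26, 14 were called higher and 3 lower (6.73% and 3.32% of all genes). The 4 genes of phosphoinositide 3-kinase had a median of 0.13 in SUDHL6 and 0.40 in SUDHL16, which was 0.15 without CE-26. None of the 4 was called in either line with all libraries. Without CE-26 they did not move together, since 2 of the 4 were above 0, and 1 was called higher.

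Transcripts known to follow receptor stimulation within hours went different ways. Of 22 such genes, 0 were called higher and 6 lower by edgeR in SUDHL6 (4.31% and 4.65% of all genes; median log2 fold change -0.35), and 13 had an unadjusted p under 0.05 in either direction (45.2% of all genes). DESeq2 and voom also called 6. Of these, CD83 (an activation marker) went from 326 to 107 CPM and BCL2A1 (the BCL2 relative BFL1) from 7.27 to 2.37 CPM. The others were CD69, EGR2, EGR3 and CCL3. All but CD83 were below 10 CPM in every SUDHL6 library. CD69, with 8 to 13 counts in resistant libraries, passed the filter on low counts only through its parental group. Its place among the 6 is therefore a description. In SUDHL16, 3 of 19 tested were called higher (3.2% of all genes), CD83 (log2 fold change 1.74, adjusted p = 0.0116), DUSP6 (1.23, adjusted p = 0.0209) and JUNB (from 31.3 to 89.0 CPM, adjusted p = 0.0407), and JUN was called lower (-3.42, adjusted p = 0.00678), with a median of 0.45. CD83 was thus called lower in SUDHL6, as SYK was, and higher in SUDHL16. The SUDHL16 count of 4 is fragile: leaving out CE-25, CE-27, CE-28, CE-29 or CE-30 left 1 call each, and leaving out CE-26 gave 7 (6 higher and 1 lower, median 1.15).

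**Figure D4:**
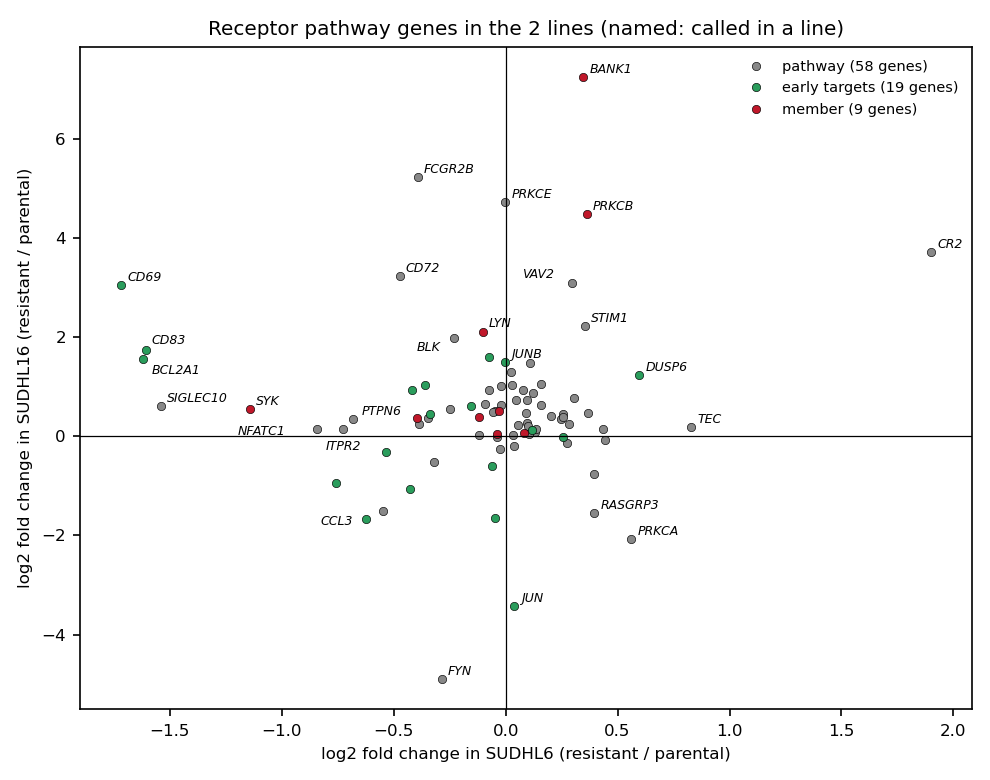
Log2 fold change of resistant over parental cells in SUDHL6 (horizontal axis) and SUDHL16 (vertical axis) for the 9 members, 58 other pathway genes and 19 early target genes tested in both lines. Named genes were called in at least 1 line, and the axes differ in scale. BANK1 and PRKCB lie high on the vertical axis near 0.35 on the horizontal one, SYK lies at -1.14 on the horizontal axis, and FYN and JUN lie lowest on the vertical axis.

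Genes near the called members had medians close to 0. Around PRKCB, the 59 protein-coding genes tested within 5 Mb of its start had a median log2 fold change of 0.05 in SUDHL16, between -1.82 and 1.35. The 25 around BANK1 had a median of -0.06, between -0.79 and 0.81, and the 19 around LYN had 0.14, between -0.54 and 0.71. In SUDHL6 the 34 neighbours of SYK had a median of -0.09, between -5.07 and 0.21, and 4 of them were called. Around BTK on the X chromosome, 34 neighbours had a median of -0.96 in SUDHL16, with 7 of them above 0 and 4 called, while BTK itself was at 0.07. Without CE-26 that median was -0.62 over 35 genes.

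The genes with the pattern most like that of each called member were taken as the 3 protein-coding genes with the highest Pearson correlation over the 12 libraries, after centring log2 CPM on the mean of each line, among up to 8860 genes that averaged 5 CPM or more in both lines. They were STAT5B (r = 0.997), ALPL (0.995) and HLA-DQA2 (0.993) for PRKCB, ZFP36L1 (0.997), GATAD1 (0.996) and RGS16 (0.995) for LYN, and RAB33A (0.998), ILDR2 (0.994) and DGAT2 (0.992) for BANK1. For SYK they were SIGLEC10 (0.979), PHB2 (0.968) and ATP6AP1 (0.963), of which SIGLEC10 is on the pathway list and fell in SUDHL6 with SYK. Without CE-26 all 12 correlations were between 0.961 and 0.998. These values are a description, since the libraries share their line and group, and HLA-DQA2 shares sequence with near-identical HLA genes, so its counts are uncertain.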

How the data were processed

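RNA was sequenced from SUDHL6 and SUDHL16 cells, parental and venetoclax-resistant, with 3 libraries per group. The authors trimmed reads with Trim Galore, aligned them to GRCh38 with HISAT2 and used StringTie and edgeR. The deposited values are raw whole-number counts per Ensembl gene, 1 table per library; the counting tool, annotation release and use of strand are not given in the sources used here. Of 60675 identifiers, 56558 matched GENCODE 44, which gave symbols, positions and lengths.

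Each line was fitted alone with edgeR 4.0.16 in R 4.3.3 (filterByExpr, TMM, quasi-likelihood F test, two-sided), and p-values were adjusted by Benjamini-Hochberg over all genes tested. A gene was called at adjusted p under 0.05 and at least 1.5-fold. CPM used TMM-scaled library totals. The difference between the lines was an interaction term over all 12 libraries. Intervals are 95% from the fit. The scripts were tested on simulated data.

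The members and lists were chosen with earlier results of these data known. The pathway, early target and marker lists were written from general knowledge. Named genes were the members, list genes called in either line (at most 12 per list and line), the closest relatives of the members and the 3 genes most alike to each called member, with neighbours within 5 Mb as a median; ZNF518A was named after its value was seen. Promoter windows came from RefSeq (GRCh38.p14), where 7 of 9 members matched. Alternatives were DESeq2 1.42.0, limma 3.58.1 voom, other scaling, no filter, glmTreat, robust fitting, protein-coding genes only, 1 fit of all libraries and each library left out. A few genes of the lists are not reported here.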

Additional observations from a re-analysis of the deposited data

Results flagged for a closer look

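The change of LYN, SYK and PRKCB with resistance differed between the lines by the interaction test of edgeR, adjusted over all genes. BANK1 also passed, as a description only. The log2 change in SUDHL16 minus that in SUDHL6 was 2.25 for LYN, 1.73 for SYK, 7.05 for BANK1 and 4.16 for PRKCB. For LYN and SYK the fitted changes had opposite signs in the lines. The SYK interval in SUDHL16, -0.08 to 1.17, included 0, and the LYN change in SUDHL6 was small, at -0.10. For BANK1 and PRKCB the fitted changes had the same sign and differed in size. LYN, SYK and PRKCB kept an adjusted p under 0.05 under each of the 5 alternatives run for this test, with a highest value of 0.0109 for SYK; these left out CE-26 but no other library. The value of BANK1 is a description, since BANK1 was tested in SUDHL16 only through its resistant group and its call there was lost without any 1 of the resistant libraries. Line, kit and platform cannot be told apart in this difference, and the spread shared by the lines may make its p-values too small.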

How the results depend on the processing

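Of 315 values of single members under the alternatives, 301 kept their direction and their side of the limits, 4 lost the call and 10 changed sign. The calls of SYK in SUDHL6 and of LYN and PRKCB in SUDHL16 held under all 15 alternatives each, with log2 fold changes of -1.16 to -1.12, 1.91 to 2.25 and 4.35 to 4.70 and adjusted p up to 0.0166, 0.0175 and 0.00566. The 4 lost calls were those of BANK1 given above, and with DESeq2 its log2 fold change was 5.70. Signs turned only for BTK and BLNK, neither of which was called: BTK in SUDHL16 was -0.016 with upper-quartile scaling and -0.0797 with voom (-0.14 to 0.196 with a library left out), and BLNK in SUDHL16 was -0.0563 with upper-quartile scaling, -0.0236 with voom and -0.0254 over protein-coding genes (-0.23 without CE-30 to 0.193). The difference between the lines turned to 0.0897 for BTK with no filter, and to -0.0434 with upper-quartile scaling and -0.0067 with voom for BLNK. The median over all genes in SUDHL16 was -0.11 with upper-quartile scaling and 0.11 with library totals.

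In SUDHL6, the pathway calls went from 7 to 3 and the early target calls from 6 to 1 in 1 fit of all 12 libraries, which shares the larger spread of SUDHL16. In SUDHL16, the 12 pathway calls became 24 with voom, 19 with DESeq2 and 25 in 1 fit of all libraries. The 4 early target calls there became 2 with glmTreat, 10 with voom and 11 in 1 fit, and 1 to 7 with a library left out. The cause was not tested. Of 36 group levels per kilobase, 28 moved by more than the spread when merged exons gave the length. No paired analysis was possible because the labels give no replicate numbers. The spread in SUDHL16 left intervals more than 1 log2 unit wide for each member not called there.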
